A study of Musca domestica with 8 samples.

Results

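Flies see with rhodopsin, an opsin protein that holds the chromophore retinal. Light turns rhodopsin into metarhodopsin, which acts through a Gq protein on the phospholipase C norpA, and TRP and TRPL channels of the photoreceptor membrane then open. Arrestins bind metarhodopsin and end its activity. In *Drosophila*, opsin Rh1 fills the outer photoreceptors of the compound eye, and other opsins are used in the inner photoreceptors and the ocelli.

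Contigs of these proteins were chosen from the deposited contig table by a rule that reads their annotation. An annotation had to contain opsin, arrestin, chaoptin, retinal, retinin, transient receptor potential or the word norpA, with an insect as the bracketed species of the best match. This gave 13 of the 35834 contigs of the assembly, which carry 10 protein names. The word opsin, rhodopsin included, was found in 7 contigs, and arrestin, retinal and transient receptor potential in 2 contigs each. No contig was named chaoptin, retinin or norpA, and neither the TRP nor the TRPL channel of phototransduction was among the names. Many contigs are matched to *Drosophila* proteins that carry only a gene number, and those were not read as any protein. Contigs matched to proteins of other species carry no housefly gene name or position, and how close a match is was not recorded there.

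Read counts were available for 8 samples, No.1 to No.8, all labelled as the spinosad resistant housefly strain 791spin, which was selected with spinosad from the multi-resistant strain 791a. The paper's methods describe whole adult flies, 5 to 7 days old, pooled over males and females and fed sugar. They do so for a single library, and whether each of the 8 samples was such a pool was not tested. No sample label gives another strain, treatment or time, so no groups were compared, and nothing in the labels says whether the samples are separate cultures. The design text of the series does speak of a susceptible strain, which no sample label names, so differences between samples cannot be taken as spread within 791spin with certainty. The labels describe a normalized cDNA library, in which abundant transcripts are reduced, so levels need not rank transcripts by abundance. The count totals exceed by far the reads of the single pyrosequencing library in the methods, so most counted reads must have another source, which the labels and methods do not name, and whether they came from normalized cDNA is unknown. In whole flies, fewer photoreceptors per fly mass and less RNA per photoreceptor cannot be told apart.

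The samples held 10266664 to 16115208 counts, and 3 counts, the limit that a count of 0 allows, corresponded to between 0.186 and 0.292 counts per 1000000 counts (CPM). No library repeated another within sampling noise, the chi-square per contig over the 28 pairs being 36.7 to 234. Contigs of the flight muscle list had 640 to 6074 CPM per sample, lowest in No.2 and highest in No.5. The 27 yolk protein contigs had 7.19 to 126 CPM in the odd-numbered and 205 to 3934 CPM in the even-numbered samples. Words for testis proteins were found in 0 contigs.

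Together the 13 contigs had 1131, 553, 1448, 794, 415, 297, 1198 and 387 CPM in samples No.1 to No.8. The mean was 778 ± 434 CPM (SD, n = 8). Opsin Rh1 carried 85.4% of these 75308 counts, and between 79.5% and 87.8% in a single sample, so the sum follows that opsin.

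Opsin Rh1 was named for a pair of contigs by its match in the fruit fly *Bactrocera dorsalis*. It had 976, 479.8, 1229, 698, 339.8, 236, 1017 and 331 CPM in samples No.1 to No.8. The mean was 663 ± 373 CPM (SD, n = 8), with a coefficient of variation of 56.3% where counting error alone gives 1.12%. No.1, No.3 and No.7 were the high samples, and No.5, No.6 and No.8 the low ones, with a 5.20-fold range. The rank of No.3 rested on the scaling. With TMM factors opsin Rh1 had 1016 in No.3 and 1012 in No.7, and with DESeq2 size factors 1003 in No.3 and 1023 in No.7. No.6 was the lowest under both.

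The other opsins were far less counted. Rhodopsin 5, matched to the blowfly *Calliphora vicina*, shares its name with a blue-sensitive opsin of inner photoreceptors in *Drosophila*. It had 2.48, 1.93, 8.43, 4.72, 4.61, 5.94, 21.3 and 8.29 CPM in samples No.1 to No.8. Its samples were ordered otherwise than those of opsin Rh1. No.1, the third highest for opsin Rh1, was among the lowest for rhodopsin 5, and No.7 stood alone at the top.

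A contig of 945 bp matched to the green-sensitive opsin of the cricket *Gryllus bimaculatus* had 17.9, 10.5, 21.2, 12.6, 5.48, 6.14, 21.2 and 12.2 CPM in samples No.1 to No.8. Its high samples, No.1, No.3 and No.7, were also those of opsin Rh1. Rhodopsin 3, which shares its name with an ultraviolet-sensitive opsin in *Drosophila*, had only 25 counts in all on a contig of 815 bp. It had 9 counts in No.3, or 0.862 CPM (exact Poisson interval at 95%, 0.394 to 1.64), and none in No.5, where the same interval reaches 0.355 CPM and the limit of 3 counts is 0.288 CPM. The intervals and the limit cover counting error only. Apart from No.3, at most 6 counts were found in a sample, too few to order the samples.

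**Figure D1:**
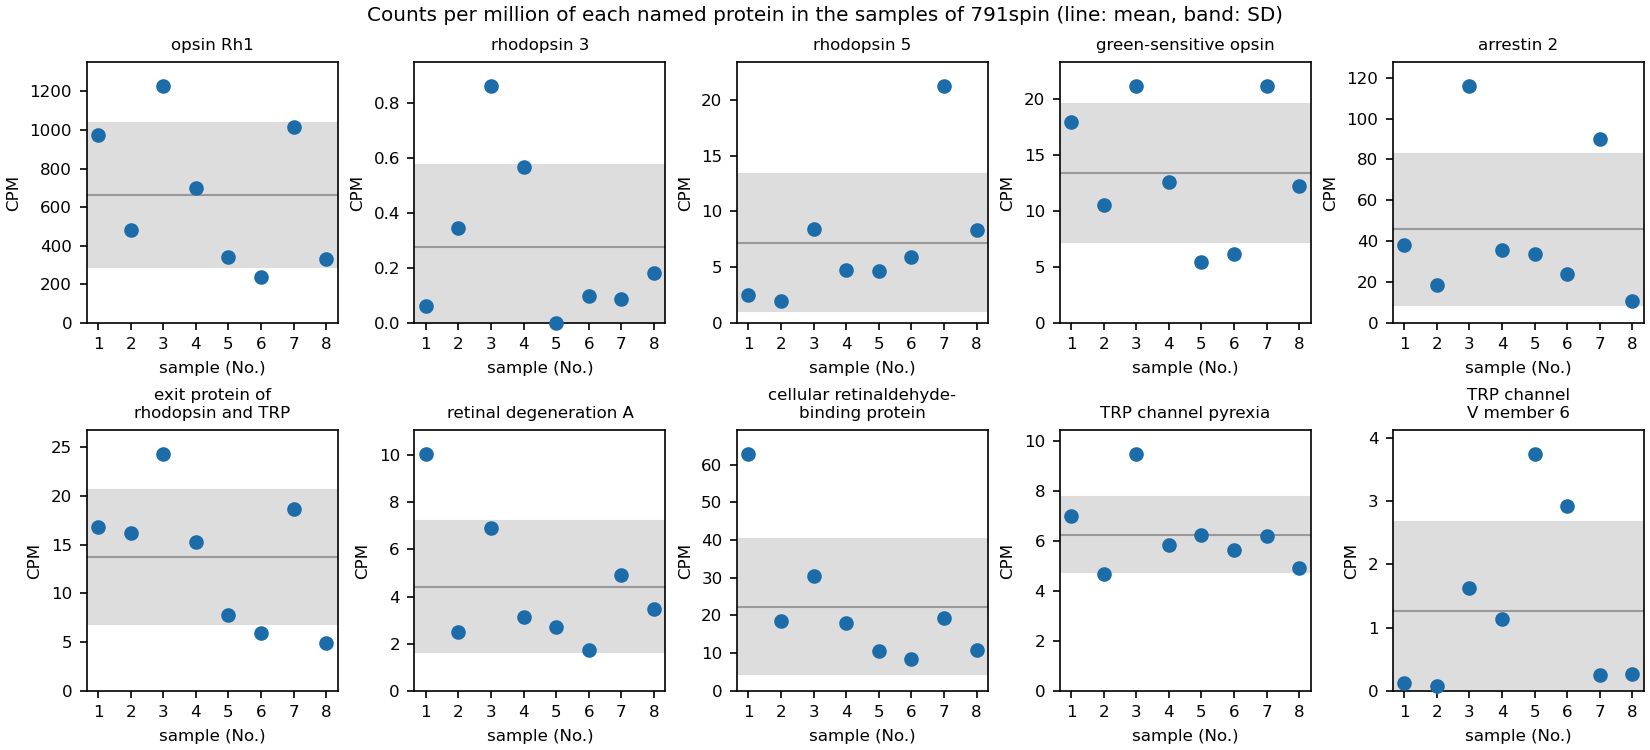
Counts per 1000000 counts (CPM, linear axis from 0) of the 10 named proteins in samples No.1 to No.8, with the mean as a line and the SD as a band. Opsin Rh1 was highest in No.1, No.3 and No.7 (976, 1229 and 1017 CPM), whereas rhodopsin 5 was highest in No.7 (21.3 CPM) and cellular retinaldehyde-binding protein in No.1 (62.9 CPM).

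Arrestin 2 is the major arrestin of fly photoreceptors. The 2 contigs matched to it in *D. melanogaster* had 38.1, 18.7, 115.9, 35.5, 33.9, 24.2, 89.8 and 10.6 CPM in samples No.1 to No.8, with a mean of 45.8 ± 37.0 CPM (SD, n = 8). No.3 and No.7 were above all others and No.8 was the lowest, under library totals, TMM and DESeq2 size factors alike. The range was 10.97-fold, wider than the 5.20-fold range of opsin Rh1.

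The exit protein of rhodopsin and TRP is a chaperone that in *Drosophila* is needed to bring TRP and Rh1 to the photoreceptor membrane. Its 2 contigs together had 16.8, 16.2, 24.3, 15.3, 7.79, 5.94, 18.7 and 4.92 CPM in samples No.1 to No.8. In this sum No.5, No.6 and No.8 were the low samples, as for opsin Rh1, but the contig M_dom_rep_c20472 was lowest in No.2 (1.86 CPM).

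Retinal degeneration A is the diacylglycerol kinase of *Drosophila* photoreceptors, which acts on the product of phospholipase C. It had 10.1, 2.49, 6.90, 3.11, 2.69, 1.75, 4.91 and 3.46 CPM in samples No.1 to No.8. The cellular retinaldehyde-binding protein, matched to the mosquito *Culex quinquefasciatus*, belongs by name to proteins that carry retinal. It had 62.9, 18.5, 30.5, 18.1, 10.6, 8.38, 19.3 and 10.8 CPM in samples No.1 to No.8. Both were highest in No.1 and lowest in No.6.

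The 2 remaining names belong to channels of the wider TRP family that are not known as visual channels. Pyrexia is a heat-activated channel in *Drosophila*, and its contig had 7.01, 4.70, 9.49, 5.85, 6.25, 5.65, 6.20 and 4.92 CPM in samples No.1 to No.8. With a 2.02-fold range it was the steadiest of the names. The contig matched to a channel of subfamily V, member 6, of the ant *Harpegnathos saltator* had 107 counts in all. It reached 3.75 and 2.92 CPM in No.5 and No.6 and 1.63 and 1.13 CPM in No.3 and No.4, against at most 0.273 CPM in No.1, No.2, No.7 and No.8, where 1 to 3 counts were found. Its high samples, No.5 and No.6, were low for opsin Rh1.

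Levels of different proteins were set side by side per length, as CPM per 1000 bases of contig (RPKM). Lengths were summed over the contigs of a name, so a little-counted contig lowers its level. The main contig of arrestin 2 held 42.2 of 45.8 CPM on 1677 of 2348 bp. For opsin Rh1 the main contig held 654 of 663 CPM on 2014 of 2916 bp. Opsin Rh1 was highest with 227 ± 128 RPKM (SD, n = 8) and stood above the next name in 8 of 8 samples. It was followed by cellular retinaldehyde-binding protein with 25.4 ± 20.2 RPKM, arrestin 2 with 19.5 ± 15.8 RPKM, green-sensitive opsin with 14.2 ± 6.54 RPKM and rhodopsin 5 with 14.1 ± 12.1 RPKM. Neighbours among these 4 were not separated. The retinaldehyde-binding protein was above arrestin 2 in 4 of 8 samples, arrestin 2 above green-sensitive opsin in 5 of 8, and green-sensitive opsin above rhodopsin 5 in 4 of 8. Lower levels were found for the exit protein of rhodopsin and TRP (8.84 ± 4.40 RPKM), pyrexia (6.63 ± 1.59 RPKM), retinal degeneration A (6.51 ± 4.11 RPKM), the channel of subfamily V (1.62 ± 1.79 RPKM) and rhodopsin 3 (0.338 ± 0.369 RPKM).

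There were 5 further contigs that carried the words of the choice but no bracketed species, because their match is a SwissProt entry. The code of these entries ends in CALVI, for *Calliphora vicina*. They were kept apart and are described beside the others. A pair of them is annotated opsin Rh1 and had 331, 109, 664, 279, 110, 97.9, 311 and 100.3 CPM in samples No.1 to No.8. With them the level of opsin Rh1 was 913 ± 558 CPM (SD, n = 8). Another pair is annotated arrestin-1, the second arrestin of fly photoreceptors, with 401, 112, 889, 341, 213, 124, 649 and 141.5 CPM in samples No.1 to No.8. This was above arrestin 2 in every sample, per length too, with means of 145 ± 113 and 19.5 ± 15.8 RPKM. The last, annotated arrestin-2, had 3.19 to 27.0 CPM, with its high values in No.3 and No.7 as for the arrestin 2 contigs. With these 5 contigs the summed level of the whole set was 1399 CPM. Another 3 contigs with the words of the choice were matched to organisms that are not insects and were left out.

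Of 28 words listed for other proteins of the visual pathway, 7 were found, in 10 contigs. Eye-specific protein kinase C, which phosphorylates proteins of the phototransduction complex, had 191.5, 31.1, 341.5, 91.2, 61.1, 41.3, 124 and 20.4 CPM in samples No.1 to No.8. The scaffold inaD, which binds TRP, norpA and this kinase, had 80.2, 22.2, 127.5, 31.8, 30.0, 18.6, 83.8 and 20.4 CPM in samples No.1 to No.8. The myosin-kinase ninaC had 33.5 to 163 CPM with its 3 highest values in No.7, No.3 and No.1. The 3 highest samples of each of these proteins were also those of opsin Rh1.

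Prominin and cryptochrome followed other orders. Prominin, which in *Drosophila* shapes the photoreceptor membrane, had 36.9 CPM in No.1 and 10.29 to 25.05 CPM in the others. Cryptochrome, a light sensor of the clock that is not confined to the eye, had 28.2 CPM in No.6, the lowest sample of opsin Rh1, and 12.01 to 20.5 CPM in the others. Of the pathway contigs 8 reached the count needed for a test, and 8 of 8 varied beyond counting error, against 95.1% of all contigs. The eye pigment transporter scarlet had 22 counts in all and the Na/Ca exchanger 2 counts.

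Contigs annotated with proteins of the nervous system (22 contigs, of which 19 had counts) had 169.8, 79.1, 262, 145, 115, 99.2, 180.3 and 91.2 CPM in samples No.1 to No.8. Their high samples, No.1, No.3 and No.7, were those of opsin Rh1, over a 3.31-fold range. No contig was found for 5 of the 11 words of this list, synapsin, syntaxin 1A, bruchpilot, choline acetyltransferase and the vesicular acetylcholine transporter. The flight muscle list was high in No.5 and No.6, where opsin Rh1 was low. What part the mix of tissues had in the opsin values was not tested.

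**Figure D2:**
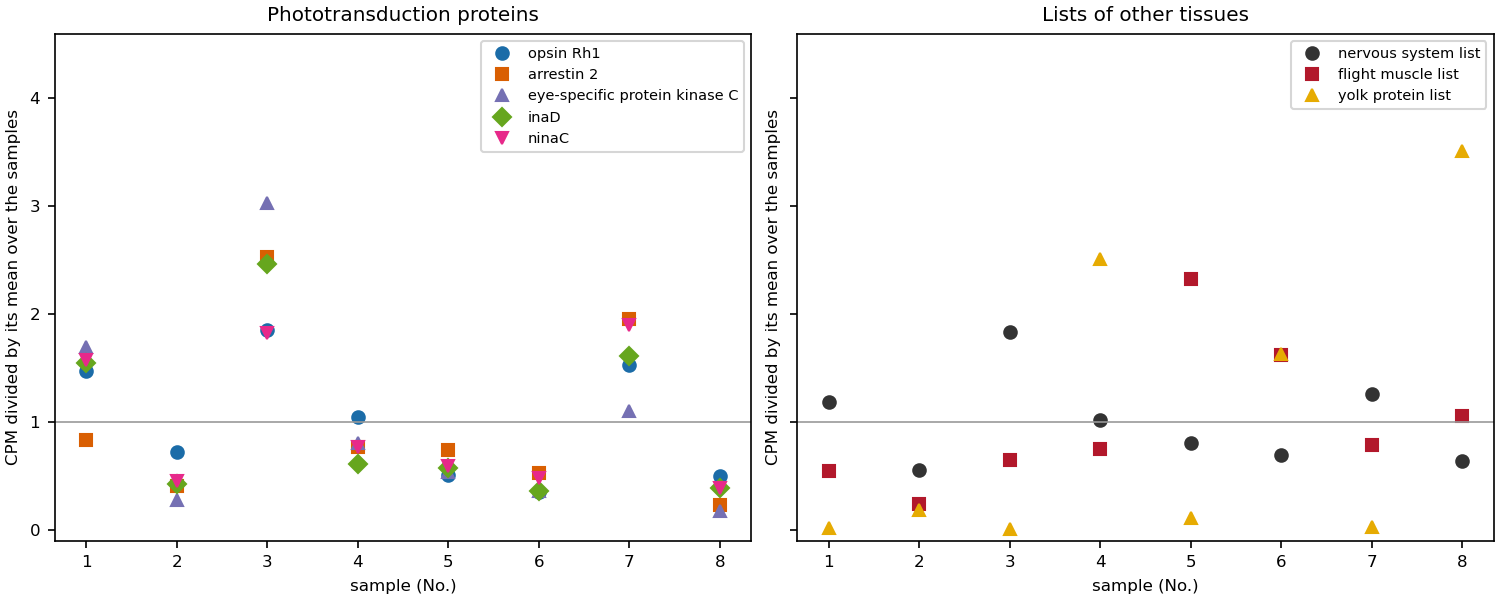
CPM divided by the mean over the 8 samples, for opsin Rh1, arrestin 2, eye-specific protein kinase C, inaD and ninaC (left) and for the summed lists of nervous system, flight muscle and yolk proteins (right). inaD and ninaC lay above their means in No.1, No.3 and No.7, opsin Rh1 and the nervous system list in these and in No.4, and the flight muscle list in No.5, No.6 and No.8.

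Whether a contig varied between samples beyond counting error was examined by chi-square in the 23597 contigs that averaged 5 or more counts, with p-values adjusted over all of these by the Benjamini-Hochberg method. These p-values measure only the spread between the libraries, which may be technical. Rhodopsin 3 did not reach this count, and 12 of the 12 contigs that did were called, the least clear being pyrexia (adjusted p = 0.000203). This is no mark of visual proteins, since 95.1% of all tested contigs were called. Without No.3 the call of pyrexia was lost (adjusted p = 0.164).

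The size of the variation was taken as the square root of the dispersion estimated by edgeR, a coefficient of variation between samples. Its median over the 12 contigs was 0.621, against 0.550 over all tested contigs, and 10 of 12 lay above that median. The lowest was 0.382 for pyrexia and the highest 1.07 for the channel of subfamily V. The main contig of opsin Rh1, with 0.551, lay near the median of all contigs, many of which have far fewer counts. Its dispersion was 0.304, against medians of 0.303 over all tested contigs and 0.240 when only contigs averaging 50 or more counts were fitted.

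**Figure D3:**
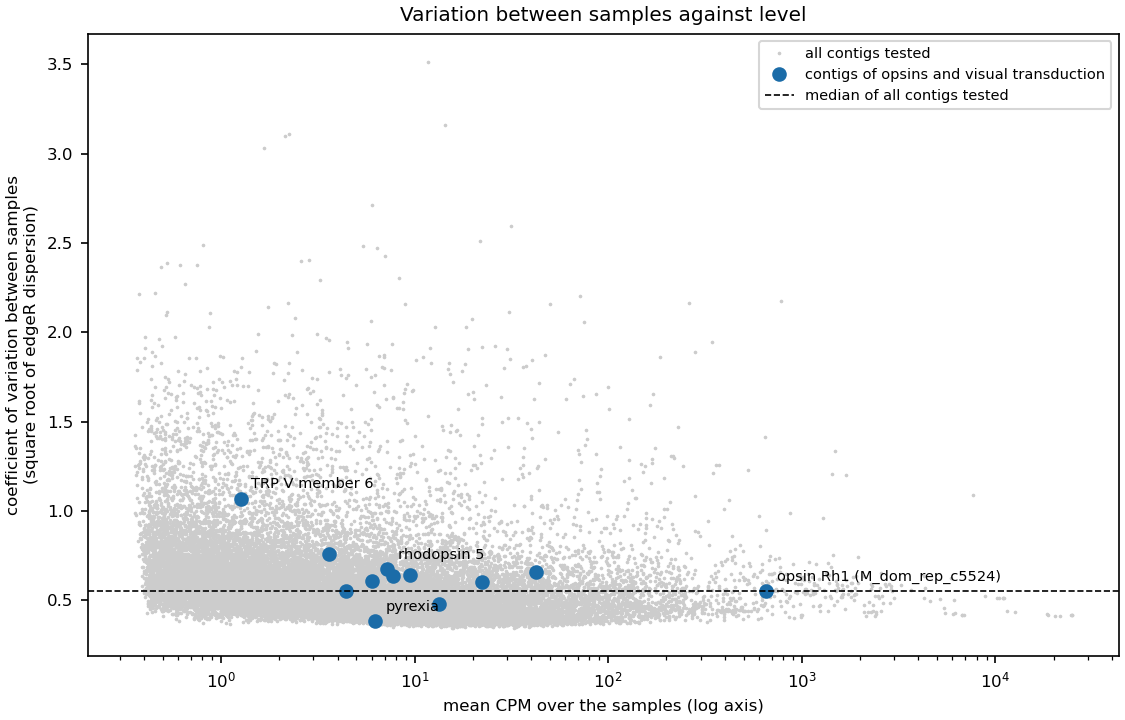
Coefficient of variation between samples (square root of the edgeR dispersion) against mean CPM on a log axis, for all 23597 tested contigs (grey) and the 12 contigs of opsins and visual transduction (blue). The dashed line is the median of all contigs, 0.550, and 10 of the 12 lie above it, pyrexia with 0.382 being the lowest.

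After the values were seen, each odd-numbered sample was set against the next even-numbered one. In 8 of the 12 tested contigs the odd-numbered sample was higher in all 4 cases, which was so for 18.8% of all tested contigs. In none was it lower in all 4 cases, against 18.2% of all contigs. The 8 contigs are both of opsin Rh1, both of arrestin 2, one of the exit protein, retinal degeneration A, the retinaldehyde-binding protein and pyrexia. Contigs that share a name are not separate cases, so the count weighs such names more than the others. For the main opsin Rh1 contig the ratios were 2.02 for No.1 to No.2, 1.76 for No.3 to No.4, 1.44 for No.5 to No.6 and 3.08 for No.7 to No.8. For the main arrestin 2 contig they were 1.73, 3.16, 1.34 and 9.14 in the same order.

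The odd-numbered samples were not one high group, since No.5 was below No.2 and No.4 for opsin Rh1. All odd-numbered samples lay above all even-numbered ones in 2 of the 12 contigs, the short arrestin 2 contig and pyrexia, against 5.80% of all contigs, and in 0 of 12 did they lie below all of them, against 8.05% of all contigs. The yolk protein contigs went the other way, as given above, and the labels name no difference between odd and even numbers. The part of an unequal share of the sexes was not tested. The highest value was in No.3 for 6 of the 12 contigs, against 19.8% of all contigs. With TMM factors this was 4 of 12 (9.40% of all contigs) and with DESeq2 size factors 2 of 12 (8.75%), so the place of No.3 depended on the scaling, whereas the higher odd-numbered sample was found in 9 and 8 contigs (20.5% and 19.9% of all contigs). The lowest value was in No.6 for 5 of the 12 contigs, against 8.26% of all contigs.

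Counts of a protein per 1000 counts of opsin Rh1 do not depend on the scaling of a sample. The SwissProt pair annotated opsin Rh1 is left out of these opsin Rh1 counts. That pair had 227 (No.2) to 541 (No.3) counts per 1000 of them, a 2.38-fold range. Ranges of that size therefore need not be shifts against opsin Rh1 as a whole. For rhodopsin 5 this ratio was 2.54, 4.03, 6.86, 6.76, 13.6, 25.1, 20.9 and 25.04 in samples No.1 to No.8. The ratio was lowest in No.1 and No.2 and highest in No.6, No.7 and No.8, a 9.88-fold range.

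For arrestin 2 the ratio was 39.0, 39.0, 94.4, 50.9, 99.9, 102, 88.3 and 31.9 in samples No.1 to No.8, a 3.20-fold range. It was 88.3 to 102 in No.3, No.5, No.6 and No.7 and at or below 50.9 in the rest. The SwissProt contig annotated arrestin-2 was also lowest in No.1, No.2 and No.8, with 6.87, 6.91 and 9.63 counts per 1000, and had 17.7 to 25.9 in the other samples. The ratio moved less for the exit protein (14.9 to 33.8), green-sensitive opsin (16.1 to 36.9) and retinal degeneration A (4.46 to 10.5). Their ranges were 2.28-fold, 2.29-fold and 2.34-fold. The exit protein value is a sum over contigs whose counts relative to each other ran from 0.385 to 7.70. Its narrow range therefore need not hold for either contig.

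**Figure D4:**
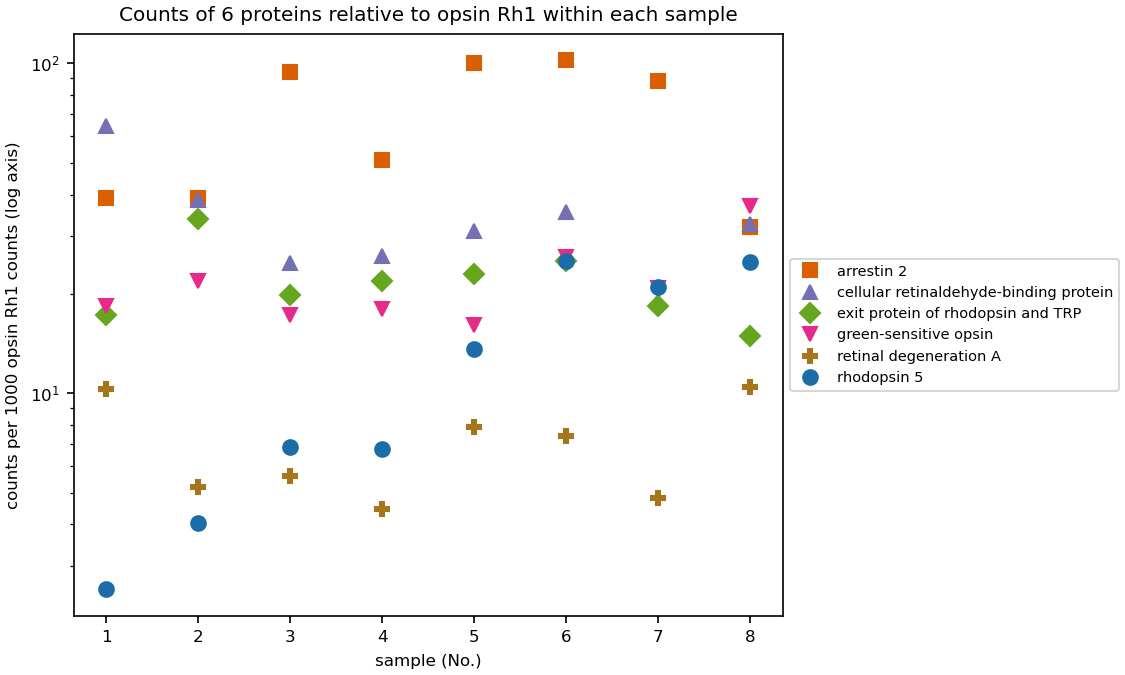
Counts of 6 proteins per 1000 opsin Rh1 counts of the same sample, on a log axis, in samples No.1 to No.8. Rhodopsin 5 spans 2.54 to 25.1, with its low end in No.1 and No.2. The exit protein of rhodopsin and TRP, as the sum of its contigs, stays between 14.9 and 33.8.

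Contigs that share a protein name did not always share a pattern. The exit protein of rhodopsin and TRP has M_dom_c3955 (742 bp), with 12.9, 14.4, 11.4, 7.36, 4.52, 2.82, 7.06 and 1.37 CPM in samples No.1 to No.8. Its other contig, M_dom_rep_c20472 (814 bp), had 3.91, 1.86, 12.9, 7.93, 3.27, 3.12, 11.6 and 3.55 CPM in samples No.1 to No.8. The counts of the first divided by those of the second gave 7.70 for No.2, 3.30 for No.1 and 0.385 to 1.38 elsewhere. The first was highest in No.2, where the second was lowest.

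The contigs of arrestin 2 were M_dom_rep_c5584 (1677 bp, 3880 counts) and M_dom_rep_c16834 (671 bp, 351 counts). The second had 240 counts per 1000 of the first in No.1 and 33.3 to 115 in the other samples. The chosen pair of opsin Rh1 was steadier, with M_dom_rep_c24974 (902 bp) at 8.45 to 18.98 counts per 1000 of M_dom_rep_c5524 (2014 bp). This was still a 2.25-fold range, and the SwissProt opsin Rh1 pair moved over a 2.38-fold range against the chosen pair. Whether such pairs are pieces of 1 transcript, alleles or separate genes cannot be read from the table, since the contig sequences were not used here.

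**Figure D5:**
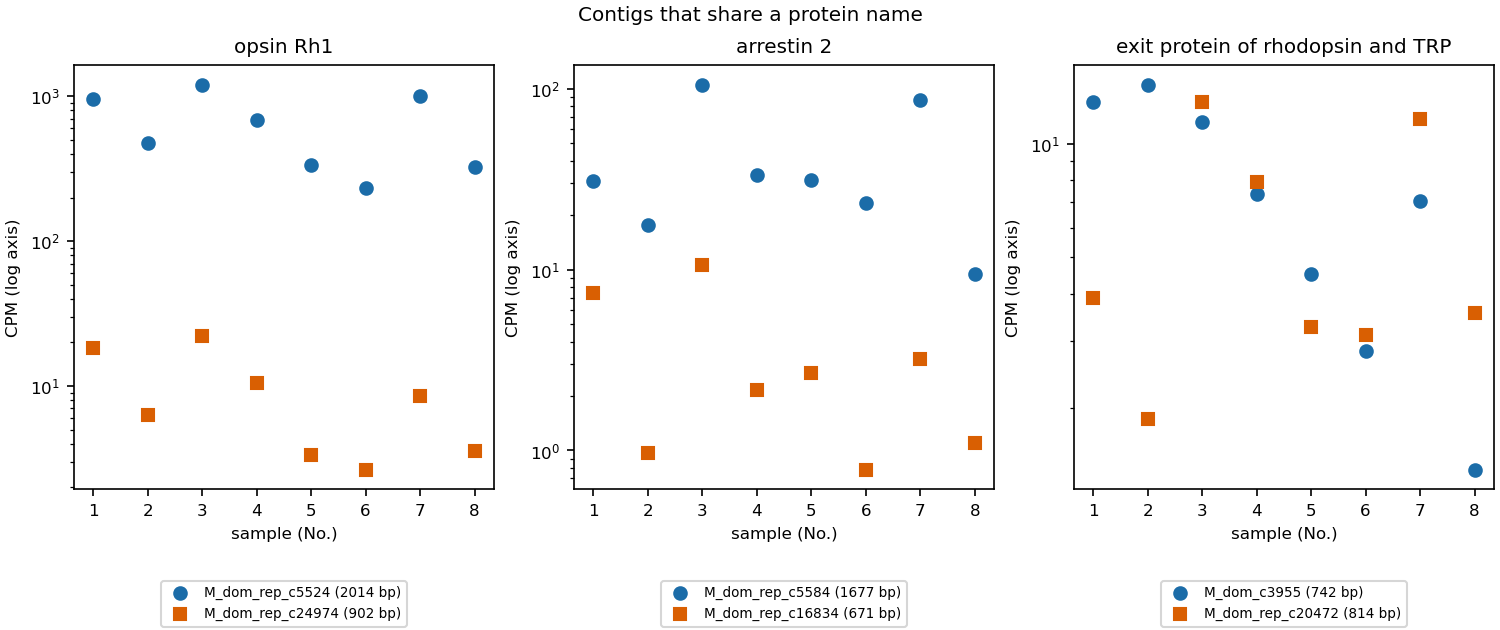
CPM on a log axis of the paired contigs of opsin Rh1, arrestin 2 and the exit protein of rhodopsin and TRP in samples No.1 to No.8. The contigs of opsin Rh1 keep a similar distance in all samples, while those of the exit protein are 7.70-fold apart in No.2 and change places in No.3.

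Likeness to opsin Rh1 was measured as the Pearson correlation of log2(CPM + 1) over the 8 samples. It is given as a description only, because all values come from the same 8 libraries. It was 0.92 for the exit protein (sum of its contigs), 0.90 for green-sensitive opsin, 0.83 for retinal degeneration A and 0.83 for cellular retinaldehyde-binding protein. Lower values were 0.78 for arrestin 2, 0.67 for pyrexia and 0.22 for rhodopsin 5. Outside the chosen contigs it was 0.92 for inaD, 0.91 for ninaC, 0.86 for eye-specific protein kinase C, 0.16 for prominin and -0.13 for cryptochrome. Over 11199 annotated contigs that averaged 50 or more counts, the median was 0.12 and the 95th percentile 0.75. Among those contigs the 5 most alike were M_dom_rep_c26301, matched to heat shock protein 40 of *B. dorsalis* (0.99), M_dom_rep_c27570, matched to the protein GH23312 of *D. grimshawi* (0.98), and M_dom_rep_c14933, M_dom_rep_c6375 and M_dom_rep_c6378, matched to hypothetical proteins (0.98, 0.97 and 0.97).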

How the data were processed

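The authors deposited 1 table of whole-number counts of reads per contig for 8 samples of 791spin, with contig length and annotation, and a scaled signal in which the authors multiplied the counts by 1 factor per sample to reach the total of No.6. The signal was not used. The paper's methods describe pyrosequencing, assembly with Newbler and MIRA and annotation by BLASTX. The sources used here name neither the aligner, the counter nor the reads counted for this table, whose totals exceed the pyrosequencing reads. Columns were matched to samples by title.

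CPM were computed on library totals. Contigs averaging 5 or more counts were tested by chi-square over the samples and adjusted by the Benjamini-Hochberg method at 0.05. edgeR 4.0.16 gave dispersions after TMM scaling in a model without groups, and DESeq2 1.42.0 was the alternative (R 4.3.3, Python 3.11.15, scipy 1.17.1). Both steps were run on simulated data that varied less between samples than these counts, so those runs do not show how the steps behave here. All protein names of the chosen contigs were described, those with under 10 counts by count only. Likeness took the 5 nearest annotated contigs. The contigs, names and lists were chosen with earlier results of these data known. Sequences and genome positions were not used here. Depth was 10266664 to 16115208 counts.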

Additional observations from a re-analysis of the deposited data

Results flagged for a closer look

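Of 40 series of per-sample values looked at, 8 held a sample whose gap to the next was large against the range of all 8 samples. The limit used would flag about 1 in 20 series of normally distributed values. These series were not checked for that form, and all 8 flagged samples were the highest of their series. Several of the 8 share the same contig. Rhodopsin 5 had 21.3 CPM in No.7, the next value being 8.43 CPM. Cellular retinaldehyde-binding protein had 62.9 CPM in No.1, the next value being 30.5 CPM, and per 1000 opsin Rh1 counts 64.4 in No.1 and at most 38.6 elsewhere. The SwissProt contigs of opsin Rh1 had 664 CPM in No.3, the next value being 331 CPM. Green-sensitive opsin had 36.9 counts per 1000 opsin Rh1 counts in No.8 and at most 26.0 elsewhere. Cryptochrome had 119 counts per 1000 opsin Rh1 counts in No.6 and at most 46.5 elsewhere. The contigs M_dom_c3955 and M_dom_rep_c20472 of the exit protein had a ratio of 7.70 in No.2 and at most 3.30 elsewhere. The short contig of arrestin 2 had 240 counts per 1000 of the long one in No.1 and at most 115 elsewhere. No explanation was tested.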

How the results depend on the processing

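TMM factors ran between 0.827 in No.5 and 1.21 in No.3. The summed level of the 13 contigs, 778 CPM, was 1404 CPM with contigs of any species or none and 1399 CPM with the 5 SwissProt contigs, an alternative chosen after seeing the data, because contigs were added. It was 755 with TMM, 758 with DESeq2 size factors and 682 to 847 when single samples were dropped. The count of contigs varying beyond counting error was 12, 13 with a mean count of at least 1, 10 with at least 50, and 11 or 12 with a sample left out. The median dispersion of the tested contigs was 0.386, 0.348 to 0.425 with a sample left out, and 0.420 with DESeq2, against 0.303 and 0.242 over all tested contigs. Of 71 values of single proteins under other scalings or contig choices, 70 moved by less than the SD between samples. The exception was cryptochrome, with 10.4 CPM on its most counted contig against 17.6 CPM. The SD is wide, so large shifts can pass this limit. On the most counted contig alone, the exit protein fell from 13.7 to 7.73 CPM (SD 6.85) and ninaC from 86.0 to 55.0 CPM (SD 56.0), both within it. None of 152 values moved by that SD with a sample left out. That outcome was fixed beforehand, since leaving out a single sample cannot shift the mean by the SD between samples. The TMM and DESeq2 counts of the patterns by sample number were also added after seeing the data. No paired analysis was possible because all samples belong to one condition. Depth limits rhodopsin 3 and the channel of subfamily V.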
